A study of Mus musculus with 4 samples.

Results

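Antiviral genes that type I interferon switches on were followed in the mouse mammary line EpH4, labelled epithelial, treated or not with PM2.5, particulate matter fine enough to be inhaled deeply. The set held 33 genes, taken by symbol from the 25413 genes of the deposited count table, with the guanylate-binding GTPases left out. The rule goes by symbol alone. PM2.5-treated cells gave 2 libraries and untreated control cells gave 2, all labelled wild type, grown in 2D and given the same batch value. The labels used here give no dose, particle source or exposure time, and do not say whether the 2 libraries of a group came from separate cultures, so p-values measure only the spread between these libraries, which may be technical. The design sets treated cells against untreated ones.

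Type I interferons bind a receptor made of IFNAR1 and IFNAR2, which activates the kinases JAK1 and TYK2. The kinases phosphorylate STAT proteins, which join IRF9 and bind interferon-stimulated response elements (ISREs) beside antiviral genes. Their products detect viral RNA, block its translation, degrade it or hold new virus particles at the membrane, and epithelial cells keep many of them at a low standing level without infection.

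Total counts were 18548478 to 20232277 in the PM2.5 libraries and 19562930 to 26206329 in the Control libraries. Of 12 epithelial markers, 6 (Epcam, Krt18, Krt19, Krt5, Cldn4 and Esrp1) had 0 counts in all 4 libraries, and 11 had a mean below 1 CPM (counts scaled to library size and a common total). The markers summed to 22 and 20.8 CPM in PM2.5 and 53.5 and 51.5 CPM in Control, and nearly all of that was the basal keratin Krt14. The 10 mesenchymal markers summed to 6976 and 7543 CPM in PM2.5, against 9800 and 10290 CPM in Control. Most of that sum was Fn1, Vim, Col1a2 and Sparc, which were lower in PM2.5, as was Pdgfrb. Col1a1, Col3a1, Pdgfra and Twist1 went the other way, with Col3a1 at a mean of 8.26 CPM in PM2.5 and 2.62 CPM in Control. Thy1 overlapped between groups. The 12 leukocyte markers, which would mark other makers of interferon-stimulated transcripts, summed to 68.3 and 75.5 CPM in PM2.5 and 64.9 and 75.5 CPM in Control, and Itgam, Tyrobp, Siglech and Cd3e were at 0 in all 4 libraries. Most of that sum was Cd14, at 52.3 and 57.6 CPM in PM2.5 and 55.9 and 65.3 CPM in Control. Cd68, a lysosomal protein of macrophages, had 9.02 and 10.3 CPM in PM2.5, against 3.63 and 4.23 CPM in Control, and Lyz2 had 6.3 and 6.64 CPM in PM2.5, against 5.05 and 5.2 CPM in Control. The part of any of these marker differences in the results below was not tested. In bulk RNA, fewer cells that carry a transcript and less of it per cell cannot be told apart.

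PM2.5 libraries held more transcript of 16 of the antiviral genes and less of 2. Bst2, which tethers budding virus at the cell surface, Zbp1, a sensor of Z-form nucleic acid, Xaf1, a pro-apoptotic protein, Oasl2 and Irf1 were higher, by 1.35-fold for Irf1 to 1.91-fold for Zbp1. Ifi44 was also called higher, at 3.08-fold, but it was tested only because it was high enough in PM2.5. Isg15, a ubiquitin-like modifier, and Trim25, a ubiquitin ligase that acts on RIG-I, were lower, by 1.40-fold and 1.18-fold. The other 14 tested genes did not pass the test (edgeR quasi-likelihood test, adjusted p below 0.05), among them Rigi, Stat2, Ifit3, Oas1a, Rsad2, Cmpk2 and Parp14.

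Read against the whole table, 16 of 32 tested genes is 50%, beside 19.2% of all 12478 genes called higher in PM2.5. The 2 lower genes are 6.25% of the tested set, beside 20.4% of all genes called lower, and 39.6% of all genes were called in either direction. The median log2 fold change of the 32 tested genes was 0.31, beside 0.01 over all genes tested. In 23 of the 32, both PM2.5 libraries lay above both Control libraries in CPM, which held for 35.9% of all genes tested. In 4 of the 32 both PM2.5 libraries lay below, which held for 35.1% of all genes. Calls were this frequent among all genes, so a call alone sets no gene apart. The filter on low counts, 0.503 CPM in 2 libraries, was not reached in both Control libraries by 5 tested genes, Oas3, Mx1, Mx2, Usp18 and Ifi44. These were tested only because they were high enough in PM2.5, so neither their calls nor their values support the counts and median above. Among the 27 that reached it in both Control libraries, 11 were higher and 2 lower. Of all 11910 genes of that kind, 18.1% were called higher, and 2545 genes were called lower. Both PM2.5 libraries lay above both Control libraries in 18 of the 27, beside 34.5% of all genes of that kind, and the median log2 fold change was 0.26, beside -0.01. These counts were added after the data were seen.

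**Figure D1:**
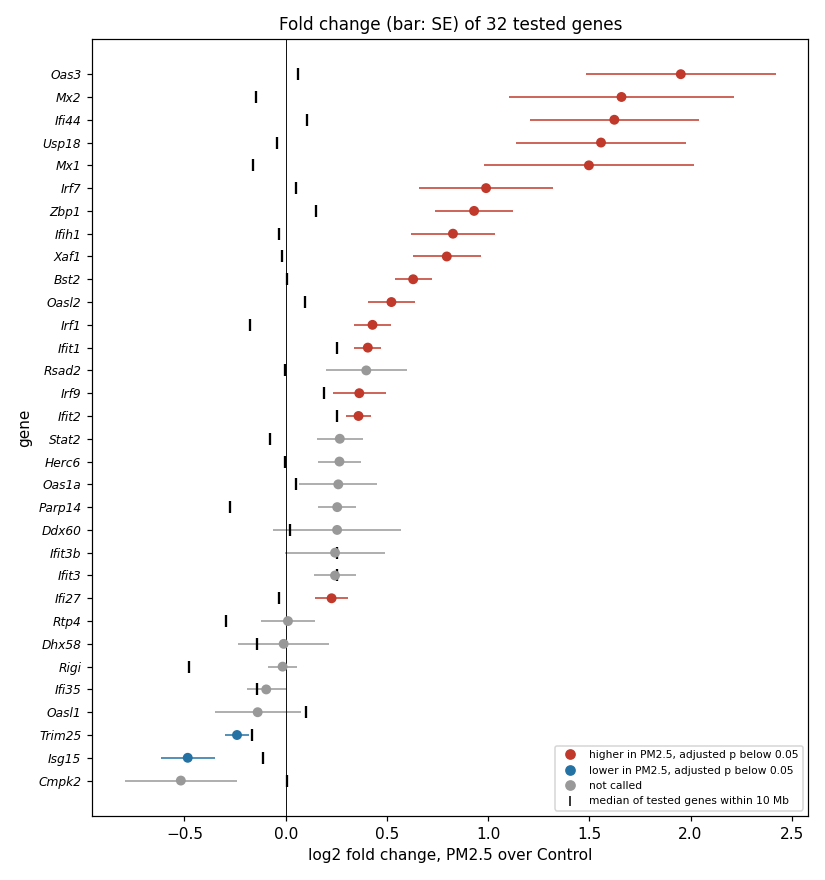
Log2 fold change of PM2.5 over Control (x axis) for the 32 tested antiviral genes (y axis, ordered by size), with the standard error as a bar and the median log2 fold change of tested genes within 10 Mb as a tick. The 16 red points are called higher and the 2 blue points, Trim25 and Isg15, lower; the ticks of Ifit1 and Ifit2 lie at 0.25 and that of Rigi at -0.48.

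The promoters were searched for the letters that interferon-activated factors bind. RefSeq windows of 300 bases on GRCm38.p6, with 250 before and 50 after the start, matched 24 of the 33 genes. The ISRE was searched as GAAANNGAAA or TTTCNNTTTC, the same motif on the other strand, with overlapping matches counted. It stood in 12 of the 24, or 50%, against 3.99% of 27025 genes with a window. The interferon gamma-activated site (GAS), searched as TTCNNNGAA, which reads alike on both strands, stood in 5 of the 24, or 20.8%, against 9.55% of all. Of the members with a window, the ISRE letters stood in 4 of 11 called higher, in 7 of 11 not called and in 1 of 2 called lower. A match is a run of letters, not a measured binding site, and these letters are only 1 way of writing the motif. The first 6 windows shown run from 140 bases before the start site to the base before it, 5′ to 3′ on the strand of the gene, with ISRE matches in capitals in the first 5. Those 5 were chosen to set the lower Isg15 beside 3 higher genes and 1 gene that was not called. For Isg15, Ifit1, Oas3 and Irf1, the first bases after the start occur in a protein-coding GENCODE M21 transcript of the gene. For Bst2, Oas1a, Ifit3 and Ifit3b, whose windows are also shown, they do not, so those start sites are uncertain.

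Isg15 (chr4:156200819-156200958, minus strand): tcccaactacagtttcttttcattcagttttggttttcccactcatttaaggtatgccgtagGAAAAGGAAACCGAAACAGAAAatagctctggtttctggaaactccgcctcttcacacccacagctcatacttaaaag

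Bst2 (chr8:71537473-71537612, minus strand): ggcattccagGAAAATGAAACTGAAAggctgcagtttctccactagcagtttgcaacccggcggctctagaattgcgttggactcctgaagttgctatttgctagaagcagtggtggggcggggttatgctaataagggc

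Ifit1 (chr19:34640749-34640888, plus strand): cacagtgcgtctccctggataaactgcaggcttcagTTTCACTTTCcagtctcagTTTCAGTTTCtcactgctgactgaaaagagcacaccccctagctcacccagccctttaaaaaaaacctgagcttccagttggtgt

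Oas3 (chr5:120777660-120777799, minus strand): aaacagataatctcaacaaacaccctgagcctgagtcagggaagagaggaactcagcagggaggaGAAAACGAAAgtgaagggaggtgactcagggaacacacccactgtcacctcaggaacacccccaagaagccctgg

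Oas1a (chr5:120907526-120907665, minus strand): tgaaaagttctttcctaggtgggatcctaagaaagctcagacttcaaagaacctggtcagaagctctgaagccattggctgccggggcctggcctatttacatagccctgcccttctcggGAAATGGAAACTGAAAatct

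Isg15, lower in PM2.5, carried 3 overlapping ISRE matches in tandem, Bst2 and Ifit1, both higher, carried 2 each, and Oas3, also higher, carried 1. Oas1a, not called, carried 2 close to the start used here. Irf1, called higher, held no ISRE letters but a GAS match, shown in capitals in its window.

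Irf1 (chr11:53769874-53770013, plus strand): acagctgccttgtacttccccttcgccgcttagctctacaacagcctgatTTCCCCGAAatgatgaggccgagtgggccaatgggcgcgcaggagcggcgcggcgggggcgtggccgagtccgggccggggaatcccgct

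The transcription factors of the set relay the interferon signal, and 3 of the 4 were higher in PM2.5, beside 19.2% of all genes. Of the 3 calls, those of Irf7 and Irf9 were lost under 5 and 6 of the 13 alternatives. Irf1, a factor that many cytokines induce, had 128 and 107 CPM in the PM2.5 libraries, against 81.9 and 92.5 CPM in the Control libraries. Its groups did not overlap, and it averaged 118 ± 15 CPM in PM2.5 and 87.2 ± 7.5 CPM in Control (SD, n = 2 each). The change was 0.43 in log2 (SE 0.09, adjusted p = 0.00382). The gene lies on chromosome 11, 53660841 to 53669200, plus strand (GRCm39, ENSMUSG00000018899). Irf1 was called under each of the 13 alternatives run.

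Irf7, which amplifies the interferon response, was much scarcer, with 51 and 73 counts in PM2.5 and 21 and 51 counts in Control. In CPM that is 2.47 and 3.85 in PM2.5, against 1.1 and 1.98 in Control, with no overlap but wide spread in both groups. Its log2 fold change was 0.99 (SE 0.33; adjusted p = 0.036). The call ended without Control replicate 1 (0.66, adjusted p = 0.143) and without PM2.5 replicate 2 (0.64, adjusted p = 0.27), while leaving out Control replicate 2 gave 1.5. It also ended with DESeq2 (adjusted p = 0.111), total gene reads (0.0503) and the positional correction (0.0516). Irf9, the DNA-binding partner of the STATs, had 12.8 and 11 CPM in PM2.5, against 8.99 and 9.46 CPM in Control (log2 fold change 0.36, SE 0.13, adjusted p = 0.0459). Its call sits at the edge of the threshold: it ended without Control replicate 1 (adjusted p = 0.11), Control replicate 2 (0.0615) or PM2.5 replicate 1 (0.311, log2 fold change 0.24). Against genes within 10 Mb on chromosome 14, whose median was 0.19, it was at 0.17 (adjusted p = 0.331).

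Stat2, which gives the complex its activating domain, had 41.2 and 42.7 CPM in PM2.5, against 29.5 and 39.7 CPM in Control. The Control libraries differed from each other more than the nearer one differed from PM2.5, and the log2 fold change of 0.27 (SE 0.11) did not pass (adjusted p = 0.0882). Without Control replicate 2, the higher of the pair, it was 0.50 with adjusted p = 3.76e-04, and without Control replicate 1 it was 0.08 (adjusted p = 0.524).

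Of the 4 IFIT proteins, which bind foreign RNA and stop its translation, Ifit1 and Ifit2 were higher, or 50%, beside 19.2% of all genes. Ifit3 and Ifit3b did not pass. Ifit1 had 57.7 and 55.1 CPM in PM2.5, against 42.5 and 42.6 CPM in Control (log2 fold change 0.41, SE 0.07, adjusted p = 9.71e-04). Ifit2 had 103 and 98.2 CPM in PM2.5, against 80 and 76.9 CPM in Control (log2 fold change 0.36, SE 0.06, adjusted p = 0.0013). Both separated the groups with little spread within them. Ifit3 had 16.3 and 16.4 CPM in PM2.5, against 13.6 and 14 CPM in Control (log2 fold change 0.24, SE 0.10, adjusted p = 0.0852). Ifit3b, at 3.64 and 2.74 CPM in PM2.5 and 3 and 2.44 CPM in Control, overlapped between groups.

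The 4 IFIT genes lie in a cluster on chromosome 19, between 34528094 (start of Ifit2) and 34627409 (end of Ifit1) on GRCm39. Tested genes within 10 Mb of them had a median log2 fold change of 0.25. Set against those neighbours, Ifit1 was at 0.15 (adjusted p = 0.105) and Ifit2 at 0.11 (adjusted p = 0.214), so both calls ended, and Ifit3 and Ifit3b were at -0.01 each. Whether the neighbourhood and the IFIT genes share a source for this shift was not tested.

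Ifit3 and Ifit3b are near copies, so their counts are uncertain. Of the windows of 50 bases in the longest Ifit3 transcript of GENCODE M21, 51.2% also occur in Ifit3b. Their promoters are alike too: the stretches below, shown to make the copy visible, were identical at 60 of 60 bases, with both ISRE matches in capitals.

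Ifit3 (chr19:34583369-34583428, plus strand): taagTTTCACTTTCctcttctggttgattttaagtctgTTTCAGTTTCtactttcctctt

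Ifit3b (chr19:34607765-34607824, plus strand): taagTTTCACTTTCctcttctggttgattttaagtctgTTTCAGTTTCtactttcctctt

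The oligoadenylate synthetases make short adenylate chains in response to double-stranded RNA. Oasl2 was higher, with 14.7 and 15.6 CPM in PM2.5, against 9.94 and 11.1 CPM in Control (log2 fold change 0.52, SE 0.12, adjusted p = 0.00544). It was called under each of the 13 alternatives run. Oas3, the largest synthetase, had 23 and 35 counts in PM2.5, against 4 and 13 counts in Control. Its ratio of scaled counts was 3.86, with a 95% counting interval of 2.22 to 7.07 (exact binomial, counting error only), and its log2 fold change of 1.95 (SE 0.47) had adjusted p = 0.00799. Without PM2.5 replicate 2 the value was 1.56 and the call ended (adjusted p = 0.0929), and without Control replicate 2 it was 2.76.

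Oas2, a neighbour of Oas3 on chromosome 5, had 9 and 22 counts in PM2.5 and 4 and 11 counts in Control, and did not reach the filter. Its ratio was 2.34, with a counting interval of 1.22 to 4.66. Oas1a had 4.94 and 4.11 CPM in PM2.5, against 3.68 and 3.88 CPM in Control, and did not pass (log2 fold change 0.26, SE 0.19, adjusted p = 0.313). It shares 57.6% of its 50-base windows with Oas1g, so its counts are uncertain. Oasl1, which dampens Irf7 translation in mice, had 3.01 and 3.69 CPM in PM2.5, against 3.89 and 3.49 CPM in Control, and the groups overlapped.

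Of the 5 sensors of viral nucleic acid, Zbp1 and Ifih1 were higher, or 40%, beside 19.2% of all genes. Rigi, Dhx58 and Ddx60 did not pass. Zbp1 had 7.9 and 8.59 CPM in PM2.5, against 3.42 and 5.08 CPM in Control (log2 fold change 0.93, SE 0.19, adjusted p = 0.00356), and was called under each of the 13 alternatives. Ifih1, which encodes MDA5, a sensor of long double-stranded RNA, had 6.59 and 5.69 CPM in PM2.5, against 2.84 and 4 CPM in Control. Its log2 fold change was 0.83 (SE 0.21, adjusted p = 0.00955). Without PM2.5 replicate 1 it was 0.71 and the call ended. For both genes the PM2.5 libraries lay above both Control libraries, and Control replicate 1 was the lowest of the 4.

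Rigi, which encodes RIG-I, the sensor of short RNA ends, had 91.6 and 100 CPM in PM2.5, against 92.1 and 102 CPM in Control. The groups overlapped, and its log2 fold change was -0.02 (SE 0.07, adjusted p = 0.887). Its neighbours were lower in PM2.5: tested genes within 10 Mb, on chromosome 4 around 40203773 to 40239828 (GRCm39), had a median of -0.48. Against them Rigi was at 0.46 (adjusted p = 9.68e-04, with their median taken as fixed). By length-scaled level, in RPKM (reads scaled to gene length and library size), Rigi at 20.9 in PM2.5 and 20.8 in Control stood far above Ifih1 at 0.948 in PM2.5 and 0.52 in Control. Dhx58, which encodes LGP2, a regulator of both sensors, was at -0.01 (SE 0.22), with groups that overlapped. Ddx60, a helicase reported to aid them, was at 0.25 (SE 0.32) with 29 and 25 counts in PM2.5, against 23 and 28 counts in Control.

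**Figure D2:**
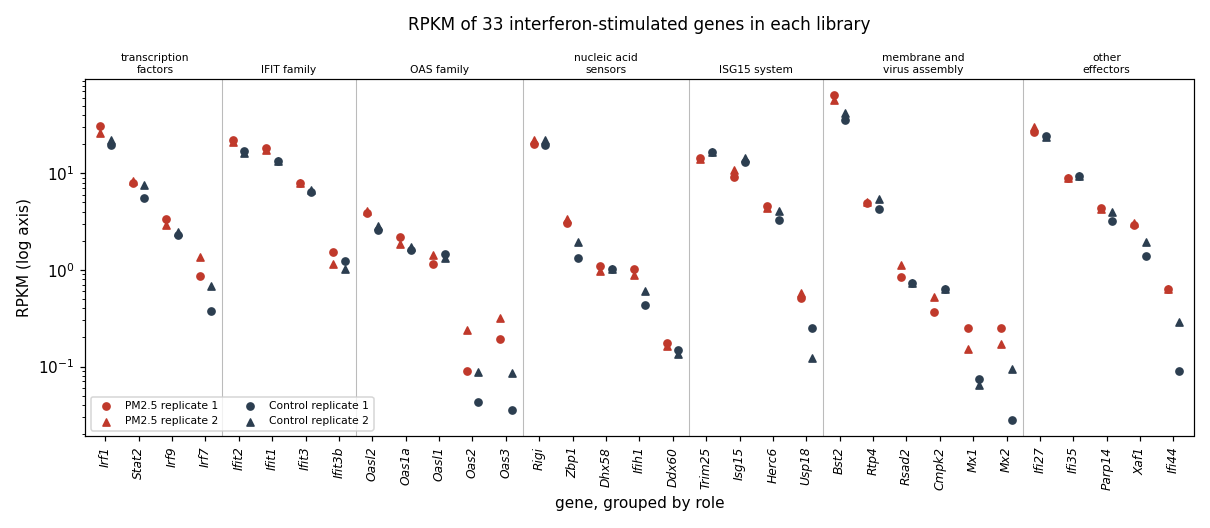
RPKM (y axis, log scale) of the 33 antiviral genes in each library, grouped by role along the x axis. PM2.5 libraries are red and Control libraries dark, with circles for replicate 1 and triangles for replicate 2; Bst2 is the highest gene, at 61 RPKM in PM2.5 and 38.7 RPKM in Control.

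The ISG15 system attaches a ubiquitin-like protein to other proteins and takes it off. Of its 4 genes in the set, Isg15 and Trim25 were lower, beside 20.4% of all genes, and Usp18 was higher, beside 19.2%. Herc6 did not pass, and each of the 3 calls ended under some alternatives. Isg15 itself had 7.66 and 8.96 CPM in PM2.5, against 11 and 12.1 CPM in Control. Its groups did not overlap, and it averaged 8.31 ± 0.92 CPM in PM2.5 and 11.6 ± 0.75 CPM in Control (SD, n = 2 each). The change was -0.48 in log2 (SE 0.13, adjusted p = 0.0159). The gene lies at the end of chromosome 4, 156283912 to 156285253, minus strand (GRCm39, ENSMUSG00000035692). Genes within 10 Mb had a median of -0.11, and against them Isg15 was at -0.37 (adjusted p = 0.0572). Its call also ended without Control replicate 2 (-0.42, adjusted p = 0.0546) and without PM2.5 replicate 1 (-0.38, adjusted p = 0.108), and with DESeq2 (adjusted p = 0.0882).

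Trim25 was the other lower gene, with 99 and 95.1 CPM in PM2.5, against 115 and 115 CPM in Control (log2 fold change -0.24, SE 0.06, adjusted p = 0.00872). Genes within 10 Mb of it had a median of -0.16. Against them it was at -0.08 (adjusted p = 0.352), and leaving out PM2.5 replicate 2 also ended the call (-0.21, adjusted p = 0.093). Usp18, the protease that removes ISG15 and restrains the receptor, had 26 and 27 counts in PM2.5, against 12 and 8 counts in Control. Its ratio was 3.0, with a counting interval of 1.76 to 5.29, and its log2 fold change of 1.56 (SE 0.42) had adjusted p = 0.014. Without Control replicate 2 it was 1.07 (adjusted p = 0.131) and without PM2.5 replicate 2 it was 1.46 (adjusted p = 0.0911).

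A wider deposited count, total gene reads, which the sources used here do not define, was far above the raw count at Usp18, with 193 and 172 in PM2.5 and 123 and 211 in Control. These reads are not scaled to depth, and their overlap between groups came from Control replicate 2, the deepest library. In the scaled fit of that count the log2 fold change was 0.28 (adjusted p = 0.178). Herc6, the ligase that attaches ISG15 in mouse cells, had 26.18 and 24.7 CPM in PM2.5, against 18.8 and 23.3 CPM in Control, and did not pass (log2 fold change 0.27, SE 0.11, adjusted p = 0.0735). Without Control replicate 2 it was 0.43 with adjusted p = 0.00568, and without Control replicate 1 it was 0.13 (adjusted p = 0.372).

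Of 6 conjugation enzymes on a list beside the 33 genes, 2 were higher, or 33.3%, beside 19.2% of all genes. Both act before Herc6 in the same chain. Uba7, which activates ISG15, had 19.4 and 20.9 CPM in PM2.5, against 9.57 and 12.5 CPM in Control (log2 fold change 0.86, SE 0.13, adjusted p = 5.83e-04). Ube2l6, which carries it onward, had 25.3 and 29.3 CPM in PM2.5, against 14.4 and 15.5 CPM in Control (log2 fold change 0.87, SE 0.10, adjusted p = 1.34e-04). Both were called under each of the 13 alternatives. The other 4 of the 6 conjugation enzymes listed did not pass, among them the ligase Arih1 (0.11, adjusted p = 0.154) and Herc4 (-0.09, adjusted p = 0.279).

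Among proteins that act at membranes or on virus assembly, Bst2, also called tetherin, had the highest level of the set per length, at 61 RPKM in PM2.5 and 38.7 RPKM in Control. In CPM it had 60.7 and 53.8 CPM in PM2.5, against 34 and 39.8 CPM in Control. It averaged 57.3 ± 4.9 CPM in PM2.5 and 36.9 ± 4.1 CPM in Control (SD, n = 2 each). The change was 0.63 in log2 (SE 0.09, adjusted p = 4.17e-04), with the smallest adjusted p of the 32. The groups did not overlap and the call held under each of the 13 alternatives. Its neighbours on chromosome 8 (71986899 to 71990100, minus strand, GRCm39, ENSMUSG00000046718) had a median of 0.00.

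Mx1 and Mx2, dynamin-like GTPases that trap viral nucleocapsids, were near the filter. Mx1 had 18 and 10 counts in PM2.5, against 5 and 6 counts in Control, a ratio of 2.88 with a counting interval of 1.39 to 6.41. Its adjusted p was 0.041, and the call ended when any 1 of the 4 libraries was left out (adjusted p = 0.0872 to 0.374). Mx2 had 19 and 12 counts in PM2.5, against 2 and 9 counts in Control, a ratio of 3.19 with an interval of 1.56 to 7.03 and adjusted p = 0.0367. That call ended without Control replicate 1 (adjusted p = 0.208), PM2.5 replicate 1 (0.244) or PM2.5 replicate 2 (0.0756), and without Control replicate 2 its log2 fold change was 2.81. The 2 genes share 4.77% of the 50-base windows of Mx1.

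Rsad2, which encodes viperin, and Cmpk2, a nucleotide kinase that works with it, lie next to each other on chromosome 12, on opposite strands. Rsad2 had 4.27 and 5.53 CPM in PM2.5, against 3.73 and 3.68 CPM in Control (log2 fold change 0.40, SE 0.20, adjusted p = 0.14). Cmpk2 had 1.41 and 2 CPM in PM2.5, against 2.42 and 2.44 CPM in Control (log2 fold change -0.52, SE 0.28, adjusted p = 0.166). Neither passed, and their difference from each other was not tested. Rtp4, a receptor transporter that inhibits virus replication, had 12.5 and 12.8 CPM in PM2.5, against 11 and 13.9 CPM in Control, where the Control libraries lay on either side of PM2.5.

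Of the remaining effectors, Xaf1 and Ifi44 were higher under every one of the 13 alternatives. Xaf1 had 9.5 and 9.91 CPM in PM2.5, against 4.63 and 6.4 CPM in Control (log2 fold change 0.80, SE 0.17, adjusted p = 0.00401). Ifi44, a cytoplasmic antiviral protein, had 45 and 41 counts in PM2.5, against 6 and 26 counts in Control. In the reported fit it was tested only because it was high enough in PM2.5, so its calls give no support. The Control libraries of Ifi44 were the furthest apart of the 32 tested genes on the log2(CPM + 0.5) scale, and its ratio was 3.04 with a counting interval of 2.0 to 4.72. Its log2 fold change of 1.62 (SE 0.42, adjusted p = 0.0111) was 2.75 without Control replicate 2 and 1.10 without Control replicate 1 (adjusted p = 0.0455).

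Ifi27, a small hydrophobic membrane protein, had 32.6 and 36.8 CPM in PM2.5, against 29.7 and 29.5 CPM in Control. Its log2 fold change of 0.23 (SE 0.08) was just past the threshold (adjusted p = 0.0485). The call ended without Control replicate 1 (adjusted p = 0.0846), Control replicate 2 (0.103) or PM2.5 replicate 2 (0.386, log2 fold change 0.13), and with median-ratio scaling (0.0509). Parp14, an ADP-ribosyltransferase, had 38.7 and 37.6 CPM in PM2.5, against 28.7 and 35 CPM in Control, and missed the threshold (0.25, SE 0.09, adjusted p = 0.0523). It lies on chromosome 16, where neighbours within 10 Mb had a median of -0.27. Against them it was at 0.53 (adjusted p = 0.00207, with that median taken as fixed). Without Control replicate 2 it was 0.41 (adjusted p = 0.0023), and without Control replicate 1 it was 0.12 (adjusted p = 0.308). Ifi35, a regulator of innate signalling, was at -0.10 (SE 0.10, adjusted p = 0.464).

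**Figure D3:**
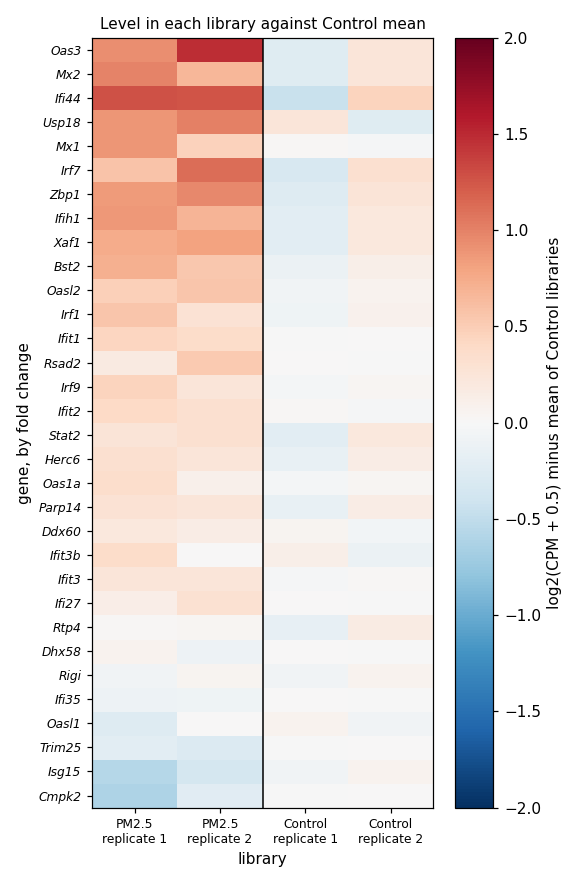
Level of each tested antiviral gene (rows, ordered by fold change) in the 4 libraries (columns), as log2(CPM + 0.5) minus the mean of the Control libraries, red above and blue below. The upper rows are red in both PM2.5 columns, and several of them, such as Ifi44, Zbp1 and Xaf1, are paler or blue in Control replicate 1 than in Control replicate 2.

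The 2 Control libraries differed in these genes. Control replicate 2 was above Control replicate 1 in 22 of the 32 tested genes (68.8%, beside 50.8% of all genes tested), with a median difference of 0.10 on the log2(CPM + 0.5) scale, beside 0.00 over all genes. The PM2.5 libraries split evenly, with replicate 2 above replicate 1 in 16 of 32. Summed over the 33 genes, the level was 814 and 790 CPM in PM2.5, against 659 and 714 CPM in Control, where Control replicate 1 was the lowest. Without Control replicate 1, 11 genes were higher and 2 lower. Without Control replicate 2, 15 were higher and 1 lower. Leaving out PM2.5 replicate 1 gave 13 and 1, and leaving out PM2.5 replicate 2 gave 10 and 1. The 6 genes that were called higher under all 13 alternatives were Irf1, Oasl2, Bst2, Ifi44, Xaf1 and Zbp1. Of these, Ifi44 was tested in the reported fit only because it was high enough in PM2.5, so its calls give no support. The share of all genes called under all 13 alternatives was not counted, so the 6 have no background to be read against.

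**Figure D4:**
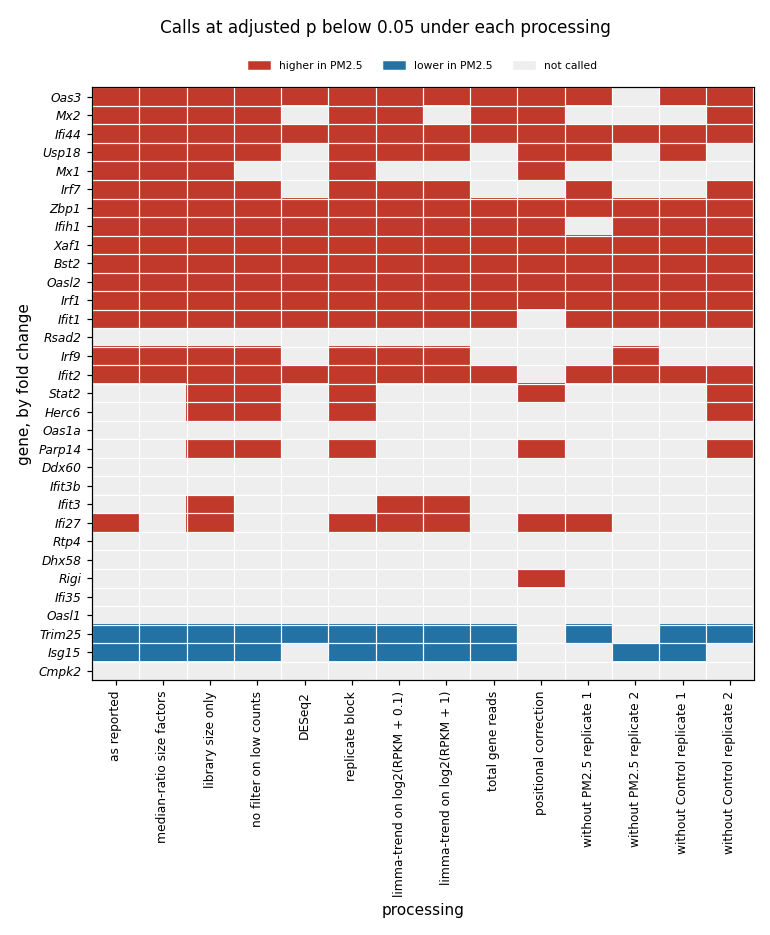
Call of each tested antiviral gene (rows) at an adjusted p below 0.05 as reported and under 13 alternatives (columns), red for higher in PM2.5, blue for lower and grey for not called. Irf1, Oasl2, Bst2, Ifi44, Xaf1 and Zbp1 are red across all columns, and neither Isg15 nor Trim25 is blue across all of them. Ifi44 was tested in the reported fit only because it was high enough in PM2.5.

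Transcripts of the interferons themselves were at or near 0. Of 21 ligand genes listed, 14 had 0 counts in all 4 libraries, which allows up to 0.116 to 0.158 CPM for each gene depending on the library (3 counts), and none of the 21 reached the filter. Ifnb1, interferon beta, had 2 and 3 counts in PM2.5, against 1 and 2 counts in Control. Ifna13 had 12 and 6 counts in PM2.5, against 8 and 4 counts in Control, the highest counts of any ligand. A difference in the ligands was not detectable at this depth.

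The receptor chains and the kinases and STATs they use were higher in 5 of 10 tested genes and lower in 1, beside 19.2% higher and 20.4% lower of all genes, with a median log2 fold change of 0.23. Jak2, a kinase of the interferon gamma and cytokine receptors, had 148 and 141 CPM in PM2.5, against 56.1 and 54.6 CPM in Control (log2 fold change 1.38, SE 0.06, adjusted p = 2.08e-07). It lies on chromosome 19, where genes within 10 Mb had a median of 0.28, and against them it was at 1.10. Ifnar2, a chain of the type I receptor, had 53.5 and 56.1 CPM in PM2.5, against 37.5 and 38.3 CPM in Control (log2 fold change 0.53, SE 0.07, adjusted p = 2.05e-04). Both were called under each of the 13 alternatives. Also higher, and named after their values were seen, were Tyk2, a kinase of the type I receptor, at 0.40, and Ifngr1, a chain of the interferon gamma receptor, at 0.32, not called when PM2.5 replicate 1 was left out (0.23, adjusted p = 0.0837). The lower gene was Jak1, with 277 and 274 CPM in PM2.5, against 337 and 343 CPM in Control (-0.30, SE 0.05, adjusted p = 0.00125). It lies on chromosome 4 among genes with a median of -0.34, and against them it was at 0.03 (adjusted p = 0.66). The receptor of interferon lambda, Ifnlr1, had 0 counts in all 4 libraries.

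Of the genes through which cells make interferon, 3 of 11 tested were higher and 1 lower, with a median log2 fold change of 0.04. At 27.3% higher, beside 19.2% of all genes, the list was near the background, and without Control replicate 1 a single gene was called higher. Tlr3, an endosomal sensor of double-stranded RNA, had 25.9 and 27.6 CPM in PM2.5, against 16.1 and 17.5 CPM in Control (0.67, SE 0.09, adjusted p = 3.30e-04). Ikbke, a kinase that activates interferon regulatory factors, and the factor Irf5 were the other higher genes, at 0.55 and 0.62. Both calls ended without Control replicate 1 (0.34, adjusted p = 0.0605, and 0.46, adjusted p = 0.0706), and that of Irf5 also without PM2.5 replicate 1 (adjusted p = 0.0755). Mavs, the adaptor of RIG-I and MDA5, was called lower at -0.19 (adjusted p = 0.0458). That call ended without Control replicate 1 (adjusted p = 0.175), PM2.5 replicate 1 (0.209) or PM2.5 replicate 2 (0.112).

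Among 12 negative regulators, 5 were higher and 1 lower, beside 19.2% and 20.4% of all genes, with a median log2 fold change of 0.14. The number higher was 3 with the positional correction, 3 without Control replicate 2 and 2 without PM2.5 replicate 2. Ptpn6, the phosphatase SHP-1, had 5.91 and 7.06 CPM in PM2.5, against 2.16 and 2.68 CPM in Control (1.41, SE 0.20, adjusted p = 4.39e-04). Isg20, an exonuclease that is itself an antiviral effector although it stands on this list, had 19.2 and 19.7 CPM in PM2.5, against 12.2 and 13.7 CPM in Control (0.58, SE 0.11, adjusted p = 0.00186). Adar, the editor of double-stranded RNA, was higher at 0.25 (adjusted p = 0.0128), a call that ended without Control replicate 2 (0.0503) or PM2.5 replicate 2 (0.137). Socs3, an inhibitor of JAK kinases, at 0.30, and the phosphatase Ptpn1, at 0.29, complete the 5, named after their values were seen. The call of Socs3 was lost when Control replicate 1 was left out (0.19, adjusted p = 0.0969) and when PM2.5 replicate 2 was (0.0947), and that of Ptpn1 without Control replicate 2 (0.0559) or PM2.5 replicate 2 (0.14). Ptpn11, the phosphatase SHP-2, was lower at -0.24 (adjusted p = 0.00993), and without PM2.5 replicate 1 its call ended (0.0599).

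A further list of 62 interferon-stimulated genes gave 14 higher and 5 lower among 53 tested, with a median log2 fold change of 0.13. That is 26.4% higher and 9.43% lower, beside the 19.2% and 20.4% of all genes. The share higher was near the background, and with DESeq2 the number higher was 8. Among the 51 that reached the filter in both Control libraries, 13 were higher and 5 lower (added after the data were seen). Of all 11910 genes of that kind, 18.1% were called higher, and 2545 genes were called lower. Ly6e, a membrane protein that limits virus entry, had 772 and 786 CPM in PM2.5, against 509 and 499 CPM in Control (0.63, SE 0.05, adjusted p = 1.62e-05). Plscr1, a scramblase with antiviral activity, had 120 and 119 CPM in PM2.5, against 64.5 and 71.4 CPM in Control (0.81, SE 0.07). Apobec3, a cytidine deaminase that mutates retroviruses, had 106 and 109 CPM in PM2.5, against 71.9 and 75.5 CPM in Control (0.55, SE 0.06). Slfn2, a Schlafen protein, had 3.68 and 4.53 CPM in PM2.5, against 0.316 and 0.582 CPM in Control (3.12, SE 0.34), with Control replicate 1 under the filter. In Ly6e, Plscr1 and Apobec3 the groups stood apart by more than the spread within them, and the call held under each of the 13 alternatives. Slfn2 was called under each of them too, but in the reported fit it was tested only because it was high enough in PM2.5. The 5 lower genes, named after their values were seen, were Ifi207 at -0.94, Tdrd7 at -0.52, the chemokine Ccl5 at -0.50, Pnpt1 at -0.33 and Nampt at -0.19. Ccl5 was called under each of the 13 alternatives. The call of Ifi207 ended without Control replicate 2 (adjusted p = 0.194), PM2.5 replicate 1 (0.112) or PM2.5 replicate 2 (0.0645), and that of Nampt without the same 3 libraries (0.277, 0.105 and 0.191, with -0.10 without Control replicate 2). Tdrd7 and Pnpt1 were at -0.04 and -0.08 against genes within 10 Mb (adjusted p = 0.65 and 0.411).

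**Figure D5:**
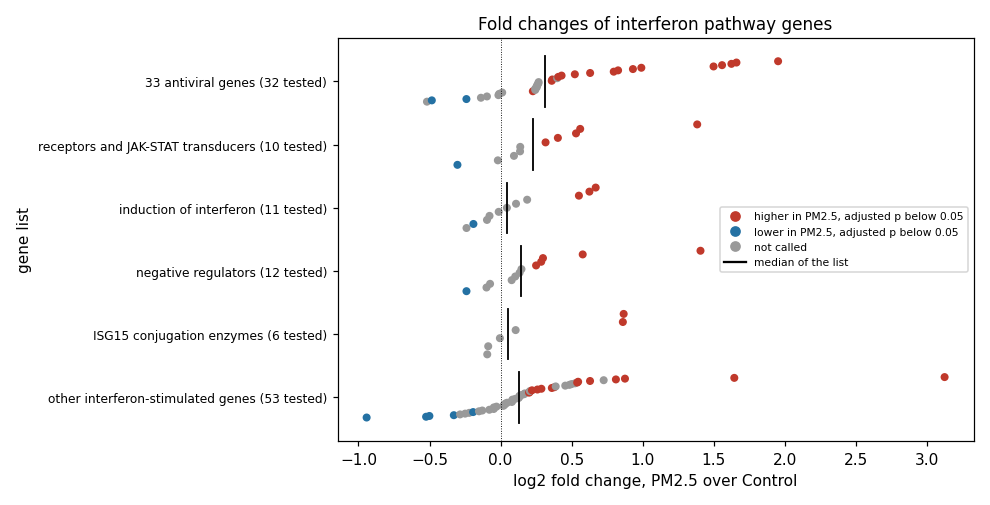
Log2 fold change of PM2.5 over Control (x axis) for the tested genes of the antiviral set and of 5 further lists (rows), with the median of each list as a black line. Red points are called higher and blue points lower; the medians run from 0.04 for genes that induce interferon to 0.31 for the antiviral set.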

How the data were processed

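The authors deposited a raw count for every gene, not normalized, and RPKM values, per the file headers, and a further read count, total gene reads, that was never below the raw count and is not defined there. Positions are on GRCm39, per the submitters' processing notes; the aligner, counter and use of strand, not given in the sources used here, leave overlapping genes uncertain. Libraries were made from 750 ng of total RNA with a stranded polyA kit, per the labels' protocols.

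The raw counts of all genes in the 4 libraries were fitted with edgeR 4.0.16 in R 4.3.3 (filterByExpr, TMM scaling, unpaired quasi-likelihood F test) with Benjamini-Hochberg adjustment over 12478 genes and a threshold of 0.05. CPM values are TMM scaled. The SE was taken as the size of the log2 fold change divided by the root of its F. The fit was tested on simulated data. Replicates differed by more than sampling noise (chi-square per gene 3.76 in PM2.5 and 7.2 in Control). Counting intervals and floors cover counting error only.

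The alternatives were median-ratio and library-size scaling, no filter, DESeq2 1.42.0, a replicate block, limma-trend (limma 3.58.1) on log2(RPKM + 0.1) and log2(RPKM + 1), total gene reads, a positional correction (offset by the median of at least 20 tested genes within 10 Mb) and each library left out. Where that leaves a group with 1 library, the lone library is assumed to vary like the other group. The positional correction takes the median of the neighbours as fixed, so its p-values leave out their spread. The members, lists and tests were chosen with earlier results of these data known. All members are named; of each list, up to 4 tested genes with the smallest p-values are named, with ligands and receptors near 0; 9 more were named after their values were seen, and some list genes are not reported here. Protein identity between members was not analysed here; shared transcript windows were counted instead. RefSeq promoters were matched by symbol, and Rigi through its Ensembl ID.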

Additional observations from a re-analysis of the deposited data

How the results depend on the processing

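The number of antiviral genes called higher was 16 as reported and 10 with DESeq2; the other scalings, filters, units and the positional correction and replicate block gave 12 to 20, requiring the filter in both Control libraries (added after the data were seen) gave 11, and leaving out 1 library gave 10 to 15. The number lower was 2 as reported, 1 with DESeq2 and 0 with the positional correction, and leaving out 1 library gave 1 to 2. Over all genes, 2400 were higher and 2545 lower; DESeq2 gave 1389 higher, and leaving out 1 library gave 1516 to 2299 higher and 1680 to 2578 lower. Scaled by library size alone, 3079 were higher and 1880 lower. Of the genes on the further lists, 29 were higher and 8 lower; 5 were lower with DESeq2 and with the positional correction, and leaving out 1 library gave 20 to 29 higher and 4 to 8 lower. Over the values of antiviral genes under the 13 alternatives, 334 kept direction and side of the threshold, 46 lost the call, 17 gained it and 19 changed sign. DESeq2 did not call Isg15 (adjusted p = 0.0882), Irf7 (0.111), Irf9 (0.241), Mx1 (0.294), Mx2 (0.217), Usp18 (0.119) or Ifi27 (0.243).

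The sign changes came in genes not called as reported, plus Jak1. With the positional correction they were Rigi (0.46, adjusted p = 9.68e-04), Dhx58 (0.13), Ifi35 (0.0444), Ifit3 (-0.0087), Ifit3b (-0.0082) and Jak1 (0.0332). Rigi and Dhx58 were at 0.047 and 0.0519 with library size only, 0.0098 and 0.0059 with log2(RPKM + 0.1), and 0.0094 and 0.0039 with log2(RPKM + 1). Rtp4 was at -0.01 with no filter and -0.19 with total gene reads. Leaving out 1 library gave -0.0866 to 0.0518 for Rigi, -0.1192 to 0.082 for Dhx58, -0.1368 to 0.1867 for Rtp4 and -0.2937 to 0.0015 for Oasl1. The causes of these changes were not tested. On log2(RPKM + 1), which understates changes of low genes, Ifi44 was at 0.46, Irf7 at 0.46, Usp18 at 0.38, Ifih1 at 0.36, Oas3 at 0.24, Mx2 at 0.19 and Mx1 at 0.16. Same-numbered libraries deviated together at r = 0.164 over genes, but with 2 pairs and no label of pairing they share only a number. With the replicate block the counts were 19 higher and 2 lower among the antiviral genes and 2797 and 2976 over all genes. Depth limits Oas2, Oas3, Mx1, Mx2, Usp18, Ifi44 and Ddx60, which had under 100 counts in either group.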
